A study of Mus musculus with 10 samples.

Results

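The myeloid C-type lectin and TREM receptors described here are 9 genes, chosen by name from the 28185 genes of the deposited table. They are Clec4d (also called MCL or Dectin-3), Clec4e (Mincle), Clec4n (Dectin-2), Clec4a2 (DCIR), Clec5a (MDL-1), Clec7a (Dectin-1), Clec12a (MICL), Trem1 and Trem3. All 9 had reads in each of the 10 libraries and all 9 passed the filter for testing.

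C-type lectin receptors and TREM receptors are surface proteins by which myeloid cells sense microbial sugars and glycolipids and the contents of damaged cells. Most of the activating members carry no signalling motif of their own and pair with the adaptor FcRγ (Fcer1g) or DAP12 (Tyrobp), which recruit the kinase Syk, while Dectin-1 recruits Syk directly, and the signal reaches NF-κB through CARD9, BCL10 and MALT1. DCIR and MICL carry an inhibitory motif (ITIM) that recruits phosphatases such as SHP-1 (Ptpn6). On neutrophils these receptors are known for triggering the oxidative burst, degranulation and cytokine release, and TREM-1 for amplifying responses to Toll-like receptor ligands.

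RNA-seq was performed on cells selected with anti-Ly6G microbeads, Ly6G being a surface protein of mouse neutrophils. All mice were C57Bl/6J males of 12 to 16 weeks that had undergone ligation of the left coronary artery, so the controls carry a myocardial infarction as well, and cells were collected on day 3. The MI group (n = 3 libraries) holds cells of the left ventricle below the ligature of mice that received no mesenchymal stromal cells (MSC), and the MI+MSC group (n = 3) holds those of mice given syngeneic bone marrow MSC under the skin at 3 sites, 1000000 cells each, within the first hour after ligation. The Blood (n = 2) and Blood+MSC (n = 2) groups hold Ly6G-selected cells from the cardiac puncture blood of untreated and MSC-treated infarcted mice. The study used single animals as its experimental unit, but the labels do not tie blood to cardiac libraries, and their batch field follows the 4 groups, so batch and group cannot be told apart.

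Values are normalized counts, that is reads per gene divided by the DESeq2 size factor of the library. The libraries held 148594 to 8602711 reads on genes, and MI 13 and Blood 21 (numbers are those of the labels) were the shallowest, with 1 read worth 8.4 and 7.07 normalized counts. Transcripts of Ly6g itself were at 4.75 to 26.9 normalized counts in the 6 cardiac libraries and at 41.2 to 645 in the 4 blood libraries. The summed level of 13 neutrophil markers ran from 2681 to 8497 for MI, 3137 to 15079 for MI+MSC, 45713 to 54439 for Blood and 17408 to 25270 for Blood+MSC, whereas 10 striated muscle markers summed to 8402 to 24640 in MI, 3309 to 12978 in MI+MSC and at most 63.6 in any blood library. The summed level of 11 monocyte and macrophage markers ran from 2807 to 7755 for MI, 5501 to 10994 for MI+MSC, 6498 to 7793 for Blood and 5295 to 6980 for Blood+MSC, and the part of these other cells in the receptor levels was not tested.

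Of the 9 receptors, 7 lie on chromosome 6 and both TREM genes on chromosome 17 (GRCm39). Clec4a2 (123083387 to 123120958, plus strand), Clec4n (123206802 to 123223980, plus), Clec4d (123239070 to 123252230, plus) and Clec4e (123258748 to 123266829, minus) follow each other in that order, with 6517 bases between Clec4d and Clec4e. Clec12a (129319654 to 129342266, plus) and Clec7a (129438554 to 129449742, minus) lie further along and Clec5a (40551234 to 40562773, minus) stands apart. Trem1 (48539784 to 48553952, plus) ends 835 bases before Trem3 (48554788 to 48565876, plus).

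Upstream sequences are shown for 4 receptors because they form the pairs whose levels moved most alike, Clec4d with Clec7a and Clec4e with Trem1. RefSeq gave promoters for 7 of the 9 genes (GRCm38.p6), and the 250 bases before the start are printed 5′ to 3′ on the strand of the gene. Capitals mark the PU.1 core GAGGAA and the C/EBP motif TTGCNNAA, each searched on both strands. PU.1 and C/EBP are transcription factors of the myeloid lineage. The regions are chr6:123261857-123262106 (Clec4d, plus), chr6:129472780-129473029 (Clec7a, minus), chr6:123289872-123290121 (Clec4e, minus) and chr17:48232489-48232738 (Trem1, plus).
Clec4d: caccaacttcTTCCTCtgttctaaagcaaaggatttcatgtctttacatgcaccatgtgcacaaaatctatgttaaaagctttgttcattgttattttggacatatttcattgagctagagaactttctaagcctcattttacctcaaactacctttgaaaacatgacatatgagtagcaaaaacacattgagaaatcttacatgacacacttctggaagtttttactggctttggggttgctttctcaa
Clec7a: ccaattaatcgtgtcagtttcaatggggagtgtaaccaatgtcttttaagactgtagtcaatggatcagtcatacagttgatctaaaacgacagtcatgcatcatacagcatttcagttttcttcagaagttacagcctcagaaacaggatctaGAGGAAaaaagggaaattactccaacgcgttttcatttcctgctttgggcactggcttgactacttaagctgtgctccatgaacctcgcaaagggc
Clec4e: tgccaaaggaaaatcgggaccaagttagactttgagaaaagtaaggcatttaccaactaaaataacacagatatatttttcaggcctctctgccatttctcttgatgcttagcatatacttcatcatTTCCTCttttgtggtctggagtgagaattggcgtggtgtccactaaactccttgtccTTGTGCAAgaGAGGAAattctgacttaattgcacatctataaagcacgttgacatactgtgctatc
Trem1: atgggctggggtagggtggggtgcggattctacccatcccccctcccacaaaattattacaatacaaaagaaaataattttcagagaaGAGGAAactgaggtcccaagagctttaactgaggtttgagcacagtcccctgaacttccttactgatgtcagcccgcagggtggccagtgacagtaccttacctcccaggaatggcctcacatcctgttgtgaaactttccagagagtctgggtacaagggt
GAGGAA was found in 6 of the 7 promoters, those of Clec4d, Clec4e, Clec5a, Clec7a, Clec12a and Trem1, and in 23.3% of all 32851 RefSeq promoters over the same 250 bases. In Clec4e it lies 56 and 123 bases before the start, in Clec7a 96, in Trem1 162 and in Clec4d 240. TTGCNNAA was found in Clec4e, 66 bases before the start, and in Clec12a, 140 bases before it, against 9.56% of all promoters. The pattern TGANTCA, searched for AP-1 with any base at N, matched as TGAATCA in Clec12a (6.75% of all promoters). A NF-κB motif was found in 0 of the 7 (4.11%). No 2 matches within a promoter overlap, and a match of letters is a description of the sequence.

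Levels differed widely among the receptors. Per kilobase of exon, the mean normalized count in Blood was highest for Clec7a (1103) and Clec4d (954), followed by Trem3 (322), Clec4e (322), Trem1 (230), Clec4n (195), Clec4a2 (66.1), Clec5a (54.9) and Clec12a (44.7). In MI the order changed at the top, with Clec4d (250 per kilobase), Clec4n (232), Trem1 (182), Clec4e (178) and Clec7a (167) close together. In MI+MSC, Clec4d (545 per kilobase), Clec4e (510) and Clec4n (474) led, and the inhibitory receptors Clec4a2 (45.9) and Clec12a (33.9) stood at the foot, as in MI. Ordering the 4 groups by mean for each receptor gave 27 steps between neighbouring groups, and the libraries overlapped in all but 2 of them. These were Blood+MSC above MI+MSC for Clec7a and Blood above Blood+MSC for Trem3. Of all tested genes, 29.7% and 15.4% had no overlap in the same direction between those groups. Only the step of Trem3 was larger than the summed SDs of its groups.

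**Figure D1:**
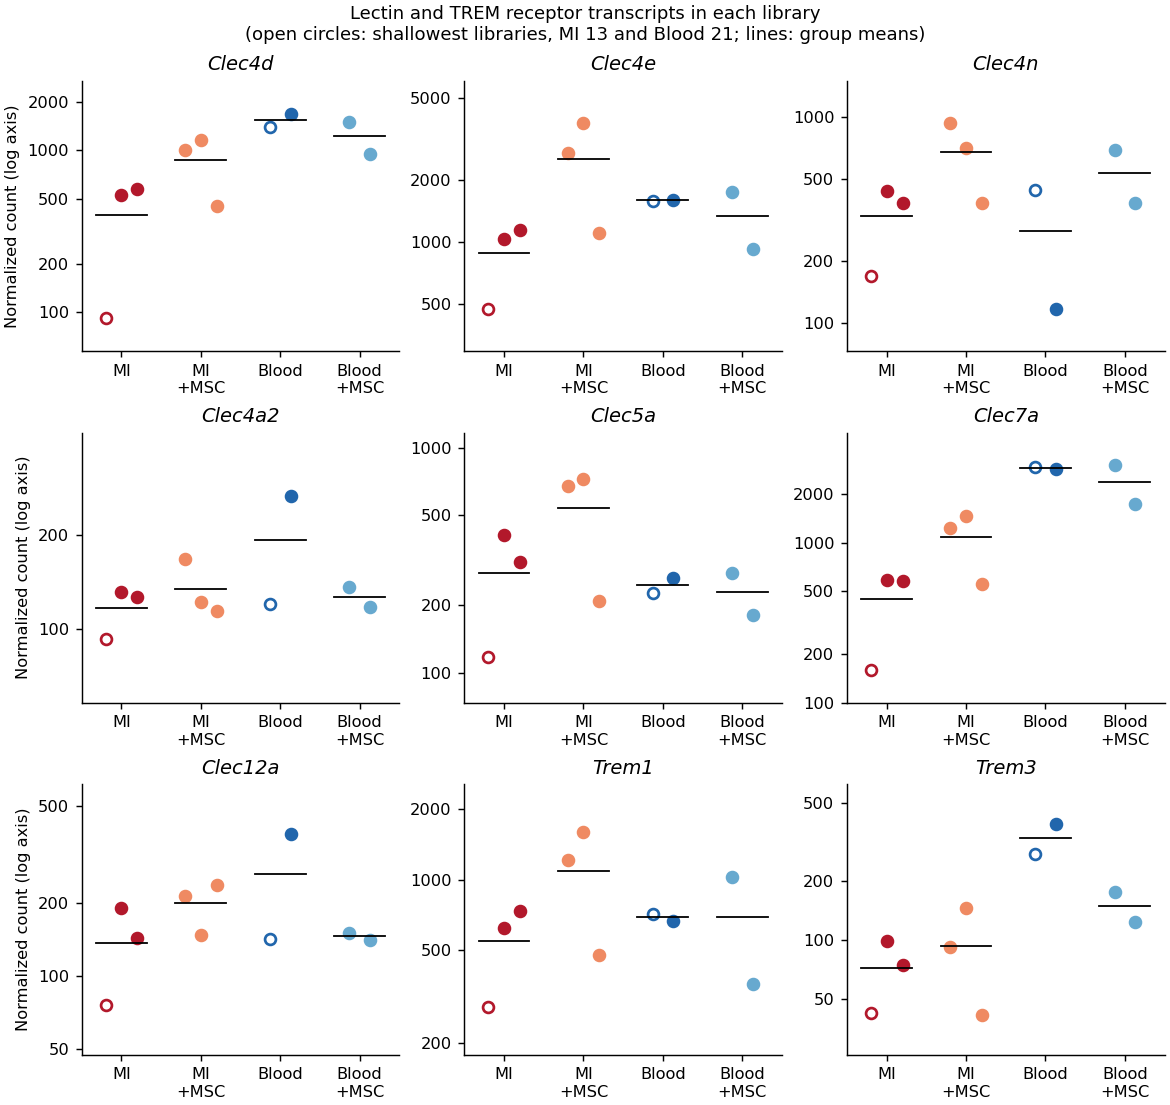
Normalized counts (log axis, scaled separately for each gene) of the 9 receptors in each library of the 4 groups. Each point is a library, open circles are MI 13 and Blood 21, and lines are group means. Clec4d, Clec7a and Trem3 are lowest in the cardiac groups, with all MI libraries below all Blood libraries.

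The first comparison asked how Ly6G-selected cells of the infarcted heart differ from those of blood in untreated mice. In MI, 3 of the 9 receptors were lower than in Blood, Clec7a, Trem3 and Clec4d, and 0 were called higher. All 3 calls were lost when the libraries were scaled to genes of all leukocytes. Among all 11549 tested genes, limma (Benjamini-Hochberg adjusted p under 0.05 and a log2 fold change of at least 0.5 on log2(normalized count + 2)) called 13.5% lower and 21.2% higher. The median log2 fold change of the 9 was -0.86, against 0.15 over all tested genes. In a bulk sample, fewer cells of a type and less RNA per cell cannot be told apart.

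Dectin-1 (Clec7a), the receptor of fungal and other β-glucans, was at 160, 587 and 577 normalized counts in MI and at 2960 and 2857 in Blood. The MI libraries therefore lay far below both Blood libraries. The log2 fold change was -2.93 (SE 0.61, limma adjusted p = 0.00493). In MI+MSC it was at 1240, 1474 and 553 and in Blood+MSC at 3033 and 1749, again without overlap, but the difference of -1.20 (SE 0.61) was not called (limma adjusted p = 0.208).

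Clec4d, which pairs with Mincle and binds mycobacterial glycolipids, was at 92.4, 532 and 580 normalized counts in MI and at 1385 and 1677 in Blood. The value of MI 13 rests on 11 reads. The log2 fold change was -2.31 (SE 0.71, limma adjusted p = 0.0277), and -1.45 without MI 13 (adjusted p = 0.0342). The call was lost when Blood 21 or Blood 22 was left out and with limma-voom. After MSC, the 1011, 1159 and 452 normalized counts of the MI+MSC libraries and the 1505 and 948 of the Blood+MSC libraries overlapped.

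Trem3, a DAP12-coupled activating receptor of mouse myeloid cells, was at 42.0, 98.0 and 74.1 normalized counts in MI and at 276 and 390 in Blood, with a log2 fold change of -2.25 (SE 0.49, limma adjusted p = 0.00626). MI 13 holds 5 of its reads, and without that library the log2 fold change was -1.92 (adjusted p = 0.0194). The MSC-treated groups were at 91.9, 145 and 41.4 in MI+MSC and at 177 and 123 in Blood+MSC, and these overlapped.

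The other 6 receptors were not called in MI against Blood. Mincle (Clec4e), which senses mycobacterial cord factor and the nuclear protein SAP130 released by dying cells, was at 471, 1029 and 1147 normalized counts in the MI libraries, with 2700, 3804 and 1100 for MI+MSC, 1590 and 1606 for Blood and 1748 and 922 for Blood+MSC. All 3 MI libraries were below both Blood libraries, while the MI+MSC libraries reached both the highest values of the series and values within the blood range. Its log2 fold change of MI against Blood was -0.96 (SE 0.59, limma adjusted p = 0.221). In all, 4 of the 9 receptors had every MI library below every Blood library (23.6% of tested genes), and 0 had every MI library above (31.6%).

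Dectin-2 (Clec4n), a receptor of fungal mannans, was at 168, 436 and 383 normalized counts in the MI libraries, with 930, 707 and 383 for MI+MSC, 438 and 117 for Blood and 685 and 383 for Blood+MSC. The Blood libraries lay further apart than the MI libraries, and the sign of the difference depends on which of them is used. The log2 fold change of MI against Blood was 0.42 (SE 0.60) with both, 1.36 without Blood 21 and -0.52 without Blood 22.

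Trem1, which amplifies Toll-like receptor responses and binds the peptidoglycan recognition protein PGLYRP1, was at 286, 623 and 733 normalized counts in the MI libraries, with 1211, 1596 and 475 for MI+MSC, 714 and 667 for Blood and 1025 and 359 for Blood+MSC. These ranges overlapped in every comparison. Clec5a, a DAP12-coupled receptor that binds dengue virus, was at 118, 408 and 310 normalized counts in the MI libraries, with 673, 728 and 209 for MI+MSC, 226 and 263 for Blood and 278 and 181 for Blood+MSC. Its log2 fold change of MI against Blood was 0.01 (95% interval -1.28 to 1.31), an interval that leaves room for a change of either sign.

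The inhibitory receptors were among the 3 lowest per kilobase in MI, MI+MSC and Blood. Clec4a2 was at 92.4, 132 and 126 normalized counts in the MI libraries, with 168, 122 and 114 for MI+MSC, 120 and 267 for Blood and 136 and 117 for Blood+MSC. Clec12a, which binds uric acid crystals, was at 75.6, 191 and 143 normalized counts in the MI libraries, with 214, 147 and 238 for MI+MSC, 141 and 385 for Blood and 151 and 141 for Blood+MSC. For both genes Blood 22 stood above the other 9 libraries.

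Leaving out the 2 shallowest libraries changed this picture. Without MI 13 and Blood 21, which leaves 1 Blood library that is assumed to vary like the other groups, limma called 6 receptors in MI against Blood. Of these, 5 were lower (19.3% of tested genes), Clec7a (-2.29), Trem3 (-2.17), Clec4d (-1.59), Clec12a (-1.21) and Clec4a2 (-1.04). The other, Clec4n, was higher by 1.79 on the log2 scale (19.9% of tested genes called higher).

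**Figure D2:**
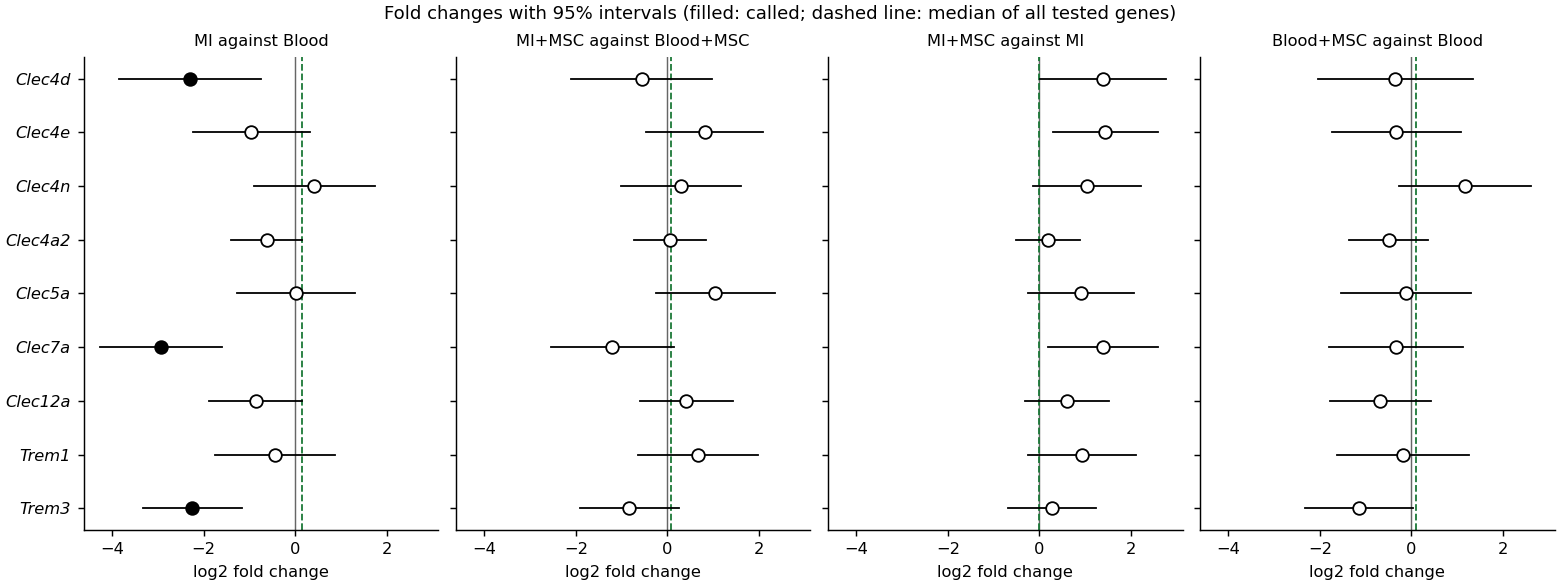
Log2 fold changes (x axis) of the 9 receptors in 4 comparisons with 95% intervals of limma. Filled points were called, and the dashed line is the median of all tested genes (0.15 in MI against Blood). Clec4d, Clec7a and Trem3 were called lower in MI than in Blood with the deposited scaling (not with pan-leukocyte scaling), and 0 receptors were called in the other 3 comparisons.

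After MSC, the same comparison of tissues gave no call. In MI+MSC against Blood+MSC, 0 of the 9 receptors were called lower and 0 higher, against 5.85% and 8.23% of tested genes, and the log2 fold changes ran from -1.20 (Clec7a) to 1.06 (Clec5a, SE 0.59, limma adjusted p = 0.247). Their median was 0.30, against 0.09 over all tested genes. At an unadjusted p under 0.05 there were 0 members, against 31.2% of tested genes. On the recovered reads, edgeR, DESeq2 and limma-voom also called 0 members, while they called 32%, 29% and 42.3% of tested genes in either direction. The share called by limma depends on single libraries, from 2.31% without Blood+MSC 23 to 23.1% without Blood 21, and 0 members were called with any 1 library left out. Clec7a alone had every MI+MSC library below every Blood+MSC library (29.7% of tested genes), and 0 receptors had the reverse (33.8%). Without MI 13 and Blood 21, which hold neither of these groups but share the estimate of spread, Clec7a was called lower (limma adjusted p = 0.0444, 19.9% of tested genes called lower).

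Transcripts common to all leukocytes also differed between the tissues. The summed normalized count of 8 genes of all leukocytes (Ptprc, Itgb2, Coro1a, Laptm5, Lcp1, Rac2, Arhgdib and Cd53) ran from 2563 to 7861 for MI, 7376 to 10252 for MI+MSC, 18257 to 33978 for Blood and 17665 to 23321 for Blood+MSC. Scaling the libraries to this sum moved the median log2 fold change of all genes in MI against Blood up by 2.39. Under it the calls of Clec4d (-0.10), Clec7a (-0.72) and Trem3 (-0.07) were lost, and Clec4n (2.60), Clec5a (2.21), Trem1 (1.77), Clec4a2 (1.56), Clec12a (1.33) and Clec4e (1.26) were called higher in MI. The 6 of 9 receptors are to be read against 67.6% of tested genes called higher under this scaling. Under it 15821 genes passed the filter instead of 11549, so more genes of the lists below were tested.

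Per 1000 summed pan-leukocyte counts, Mincle was at 131 to 184 in MI, 149 to 383 in MI+MSC, 47.3 to 87.1 in Blood and 52.2 to 75.0 in Blood+MSC. Every cardiac library was above every blood library. The same held for Clec4n, Clec4a2, Clec5a, Clec12a and Trem1, so for 6 of the 9, and for 62% of tested genes. On this scale Trem1 was at 79.2 to 111 in MI and 19.6 to 39.1 in Blood, and Clec5a at 40.6 to 51.8 in MI and 7.74 to 12.4 in Blood. Clec7a, in contrast, was at 62.3 to 75.6 in MI, below the 84.1 to 162 of Blood, while Clec4d and Trem3 overlapped between these groups. In MI+MSC against Blood+MSC, 5 receptors were called higher under this scaling (14% of tested genes), Clec5a (2.20), Clec4e (1.98), Trem1 (1.83), Clec12a (1.56) and Clec4n (1.46), where the median of all genes had moved up by 1.15.

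**Figure D3:**
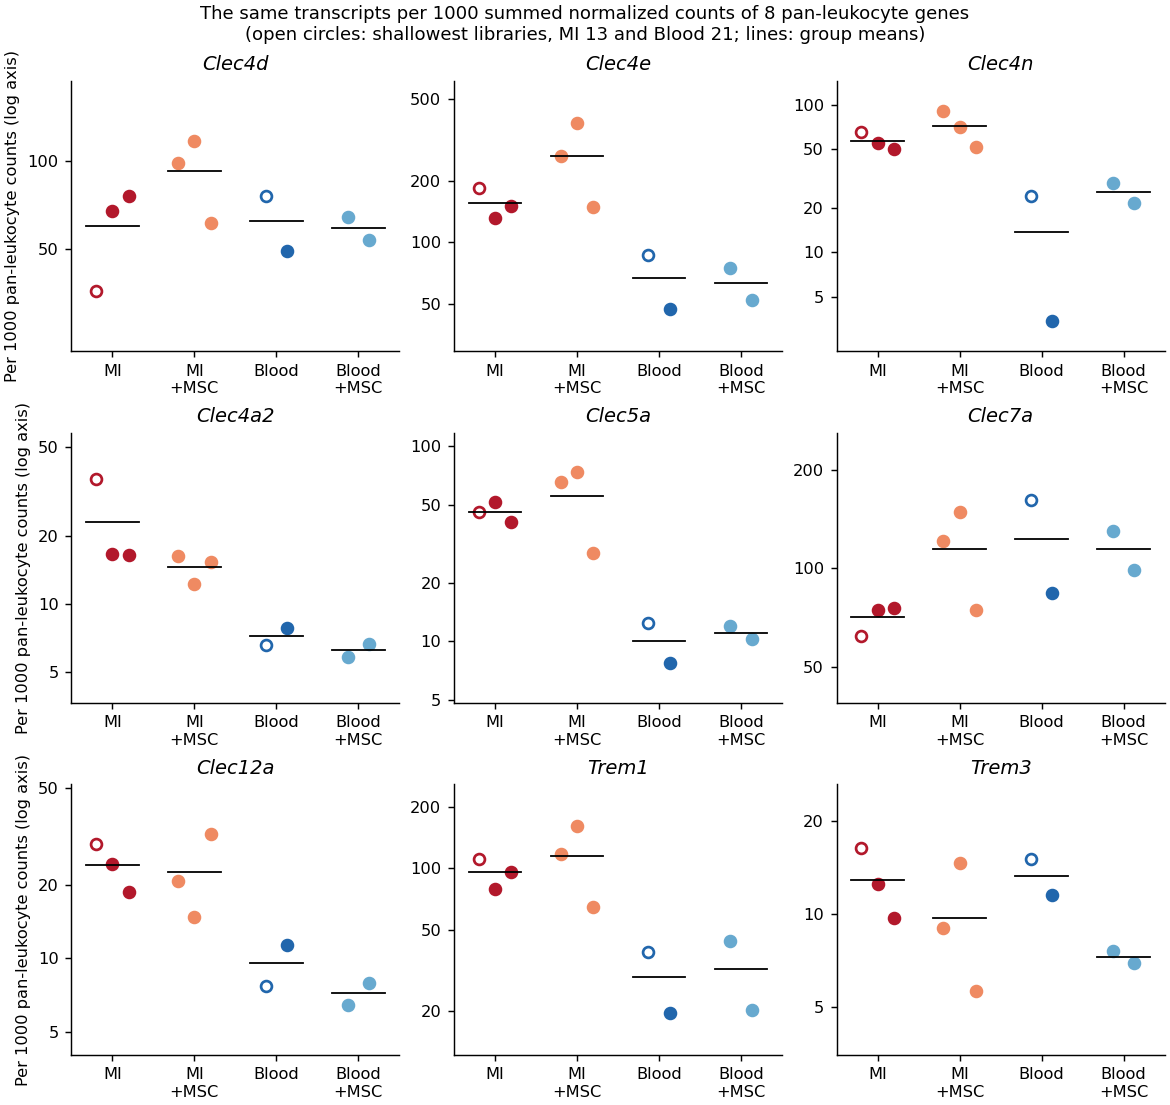
The 9 receptors per 1000 summed normalized counts of 8 pan-leukocyte genes (log axis, scaled separately for each gene) in each library of the 4 groups, with group means as lines and MI 13 and Blood 21 as open circles. Clec4e, Clec4n, Clec4a2, Clec5a, Clec12a and Trem1 lie higher in all 6 cardiac libraries than in all 4 blood libraries, whereas Clec4d, Clec7a and Trem3 overlap.

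A ratio of 2 receptors within a library does not depend on how that library was scaled, and shows that they changed unequally. Clec4e was 5.09, 1.94 and 1.98 times Clec4d in MI and 2.67, 3.28 and 2.43 times in MI+MSC. In blood the neighbours were close to equal, with ratios of 1.15 and 0.958 for Blood and of 1.16 and 0.973 for Blood+MSC. All 6 cardiac libraries were thus above all 4 blood libraries. The log2 ratio averaged 1.4 ± 0.52 (SD, n = 6) over the cardiac libraries against 0.08 ± 0.15 (SD, n = 4) over those of blood, a 2.58-fold difference (two-sided exact permutation, p = 0.00952, no smaller value being possible with 6 against 4, and 0.0143 adjusted over 3 ratios). The ratio of 5.09 in MI 13 rests on 56 and 11 reads.

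Trem1 was 6.80, 6.35 and 9.90 times its neighbour Trem3 in MI and 13.2, 11 and 11.5 times in MI+MSC. The Blood ratios were 2.59 and 1.71, those of Blood+MSC 5.81 and 2.93. Cardiac libraries were again above blood libraries in both the untreated and the MSC-treated mice. The log2 ratio averaged 3.20 ± 0.43 (SD, n = 6) over the cardiac libraries against 1.55 ± 0.73 (SD, n = 4) over those of blood, a 3.15-fold difference (two-sided exact permutation, p = 0.00952, adjusted p = 0.0143). Each MI+MSC ratio was above each MI ratio and each Blood+MSC ratio above each Blood ratio, and these differences within a tissue were not tested.

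The ratio of the activating Dectin-2 to the inhibitory DCIR did not separate the tissues. Clec4n was 1.82, 3.31 and 3.04 times Clec4a2 in MI and 5.55, 5.81 and 3.36 times in MI+MSC. The Blood ratios were 3.65 and 0.438, those of Blood+MSC 5.03 and 3.27. The difference of the mean log2 ratios was 0.64 (two-sided exact permutation test, p = 0.495, adjusted p = 0.495). Without MI 13 and Blood 21, the differences for Clec4e to Clec4d and Trem1 to Trem3 were 1.23 and 1.69 (both adjusted p = 0.0536 in the exact permutation test, where 5 against 3 libraries cannot go below an unadjusted 0.0357). The part of the other cell types in these ratios was not tested.

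**Figure D4:**
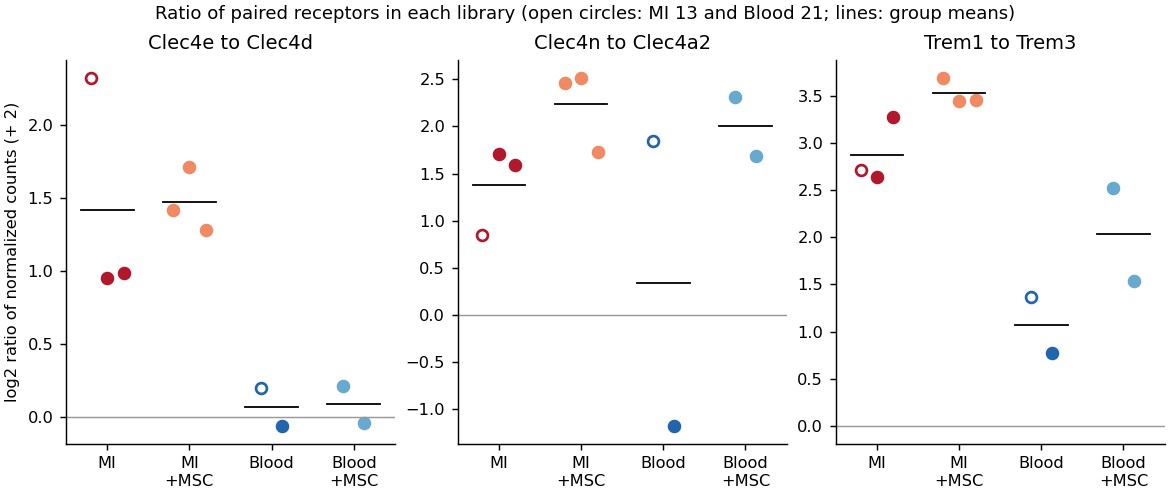
Log2 ratios of Clec4e to Clec4d, Clec4n to Clec4a2 and Trem1 to Trem3 (y axis, separate for each pair, from normalized counts + 2) in each library of the 4 groups, with group means as lines. For Clec4e to Clec4d and Trem1 to Trem3 all 6 cardiac libraries lie above all 4 blood libraries, and open circles mark MI 13 and Blood 21.

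The comparison of MI+MSC with MI asked whether MSC changed the cells of the infarct. No receptor was called, with 0 of 9 higher and 0 of 9 lower, as was true of 0% of all tested genes in either direction by limma. All 9 log2 fold changes were above 0 (48.9% of tested genes were), from 0.20 for Clec4a2 to 1.45 for Clec4e, with a median of 0.93 against -0.01 over all tested genes. At an unadjusted p under 0.05, 3 of the 9 were higher, against 3.26% of tested genes, namely Clec4e (1.45, 95% interval 0.30 to 2.60, limma adjusted p = 0.580), Clec7a (1.4, adjusted p = 0.604) and Clec4d (1.4, adjusted p = 0.618). edgeR, DESeq2 and limma-voom also called 0 receptors, against 0%, 0.684% and 2.26% of tested genes in either direction. The libraries overlapped for all 9, where 7.05% of tested genes had all MI+MSC values above all MI values.

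MI 13 and MI+MSC 18 carried much of that spread. MI+MSC 18 had the lowest value of its group for 8 of the 9 receptors, Clec12a being the exception, and for Clec4e its 1100 normalized counts lay between the MI values. MI 13 was lowest in MI for all 9. Without MI 13 the log2 fold changes ran from -0.05 for Trem3 to 1.04 for Clec4e, with 0.54 for Clec4d and 0.39 for Clec5a. Under pan-leukocyte scaling, Clec4a2 (-0.56), Trem3 (-0.47) and Clec12a (-0.14) turned negative, while Clec4e (0.69), Clec7a (0.64) and Clec4d (0.64) stayed above 0, with the median of all genes moved by -0.92. Striated muscle, endothelial and pan-leukocyte sums moved with this comparison, with endothelial markers summing to 2112 to 2269 in MI and 511 to 975 in MI+MSC, and their part was not tested.

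In blood, Blood+MSC against Blood gave 0 of 9 calls higher and 0 lower (0% of tested genes in either direction). The log2 fold changes of 8 receptors were below 0, and that of Clec4n was 1.17 (95% interval -0.28 to 2.61). Of all tested genes, 58.2% were above 0. The median of the 9 was -0.34, against 0.11 over all tested genes. Trem3 was at 276 and 390 normalized counts in Blood and at 177 and 123 in Blood+MSC, lower without overlap as were 15.4% of tested genes, but its log2 fold change of -1.14 (95% interval -2.33 to 0.04) was not called (limma adjusted p = 0.672). 0 receptors had both Blood+MSC libraries above both Blood libraries (21% of tested genes). At an unadjusted p under 0.05 there were 0 members, against 7.34% of tested genes. The other tools called 0 members too, where DESeq2 called 1.55% of tested genes and edgeR and limma-voom 0%. Without Blood 22, which leaves Blood 21 alone in its group, limma called 12.8% of tested genes and still 0 members. In Blood 21, markers of platelets summed to 26834 normalized counts and in Blood 22 to 1141, against 599 to 707 in Blood+MSC.

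Whether MSC acted differently in the 2 tissues was tested as an interaction, and 0 of 9 receptors passed (0% of tested genes by limma). Without Blood 22 the share of tested genes was 9.25%, and 0 receptors passed. The interaction was largest for Clec4e, at 1.78 on the log2 scale (95% interval -0.04 to 3.59, limma adjusted p = 0.630), and smallest for Clec4n, at -0.12 (95% interval -1.98 to 1.75). The median over the 9 was 1.28, against -0.12 over all tested genes.

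The adaptors that carry the signal of most of these receptors were lower in MI than in Blood, all 3 of them. Of all tested genes, 13.5% were called lower. Under the deposited scaling, Fcer1g was at 176 to 634 normalized counts in MI and 1216 to 1272 in Blood, with a log2 fold change of -1.64 (SE 0.48, limma adjusted p = 0.0236). The values were -2.59 for Tyrobp (adjusted p = 0.00652) and -3.55 for Hcst, which encodes DAP10 (adjusted p = 0.00742). Hcst was low, at 0 to 13.4 normalized counts in MI, with no read in the shallow MI 13, and at 49.5 to 124 in Blood. Under pan-leukocyte scaling only Hcst was called (-2.12), and Fcer1g turned to 0.57. After MSC, none of the 3 was called between the tissues by limma, with -0.09 for Fcer1g, -1.46 for Tyrobp and -2.25 for Hcst, but edgeR and DESeq2 called Tyrobp and Hcst lower.

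Of 14 tested genes of the Syk and CARD9 pathway, 7 were lower and 2 higher in MI than in Blood, with a median of -1.0. Of all tested genes, 13.5% were lower and 21.2% higher. Card9, the adaptor that links Syk to NF-κB, fell by 1.82 on the log2 scale (SE 0.41, limma adjusted p = 0.00676), and Vav2, a guanine nucleotide exchange factor, rose by 1.82 (SE 0.52, adjusted p = 0.0206). Under pan-leukocyte scaling, 8 of 15 tested genes of this list were called higher and 0 lower, where 67.6% of all tested genes were called higher, and Card9 was at 0.34. Between the MSC-treated groups 5 were lower and 0 higher (5.85% and 8.23% of all tested genes), Card9 again falling the most, by 1.89. Under pan-leukocyte scaling, however, 3 of 15 were higher (14% of all tested genes) and 0 lower. Ptpn6, the phosphatase SHP-1 that ITIM receptors recruit, fell in both comparisons, by 2.38 (adjusted p = 0.00258) and by 2.61 (adjusted p = 0.00340), and it was the only one of 3 inhibitory phosphatases called. Under pan-leukocyte scaling it was at -0.18 and not called in MI against Blood, and at -1.46 and still called between the MSC-treated groups.

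Among 4 ligands, Pglyrp1, a neutrophil granule protein and TREM-1 ligand, fell by 3.75 on the log2 scale in MI against Blood (SE 0.63, limma adjusted p = 0.00169), and by 1.56 under pan-leukocyte scaling, where it was still called. Hmgb1, an alarmin reported to act through TREM-1, fell by 1.29 (adjusted p = 0.0129) and Lgals9, a galectin that binds Dectin-1, by 1.18 (adjusted p = 0.00777), and both turned positive under that scaling, at 0.91 and 1.02. Sap130, the Mincle ligand, was at -0.01. Between the MSC-treated groups only Pglyrp1 was called, with a fall of 2.51 (adjusted p = 0.0243), and under pan-leukocyte scaling that call was lost (-1.36, adjusted p = 0.0556).

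Of 7 tested cytokine and chemokine genes known to be induced through these receptors, among many other inducers, 4 rose in MI against Blood and 5 in MI+MSC against Blood+MSC, and 0 fell in either. Of all tested genes, 21.2% and 8.23% rose in these comparisons. Under TMM and library size scaling 4 or 5 of the list rose and 0 fell, and under pan-leukocyte scaling 6 of 8 rose in each, where 67.6% and 14% of all tested genes did. The largest rise in MI against Blood was that of Cxcl1, a neutrophil chemoattractant, at 16.8 to 54.6 normalized counts in MI and at most 1.30 in Blood, and after MSC that of Il23a, a subunit of interleukin-23, at 29.8 to 161 in MI+MSC and at most 0.525 in Blood+MSC (limma adjusted p = 0.000646 and 0.00148). These blood levels are at or below 3 reads in each library, so no fold is given. In all the pathway lists above, MSC against no MSC gave 0 calls by limma in heart and in blood, as in 0% of all tested genes. DESeq2 called Cxcl1 and Tnf higher in MI+MSC than in MI, and 0.684% of all tested genes in either direction. The median log2 fold change of the tested cytokine genes was 1.80 in MI+MSC against MI, against -0.01 over all tested genes. In Blood+MSC against Blood these medians were 0.50 and 0.11.

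The receptors fell into groups of like pattern over the 10 libraries. The Pearson correlation of log2(normalized count + 2) was 0.96 between Clec4d and Clec7a, 0.88 between Clec7a and Trem3 and 0.82 between Clec4d and Trem3. It was 0.95 between Clec4e and Trem1, 0.89 between Trem1 and Clec5a and 0.86 between Clec4e and Clec5a, and 0.85 between the inhibitory Clec4a2 and Clec12a. Clec4n correlated with no other receptor above 0.67, and genomic neighbours were not the most alike, with 0.76 for Clec4d and Clec4e and 0.41 for Trem1 and Trem3. Over the 8 libraries without MI 13 and Blood 21 the leading pairs stayed at 0.97 (Clec4d and Clec7a) and 0.92 (Clec4e and Trem1). The libraries share tissue, depth and leukocyte content in groups, so these values are descriptions.

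**Figure D5:**
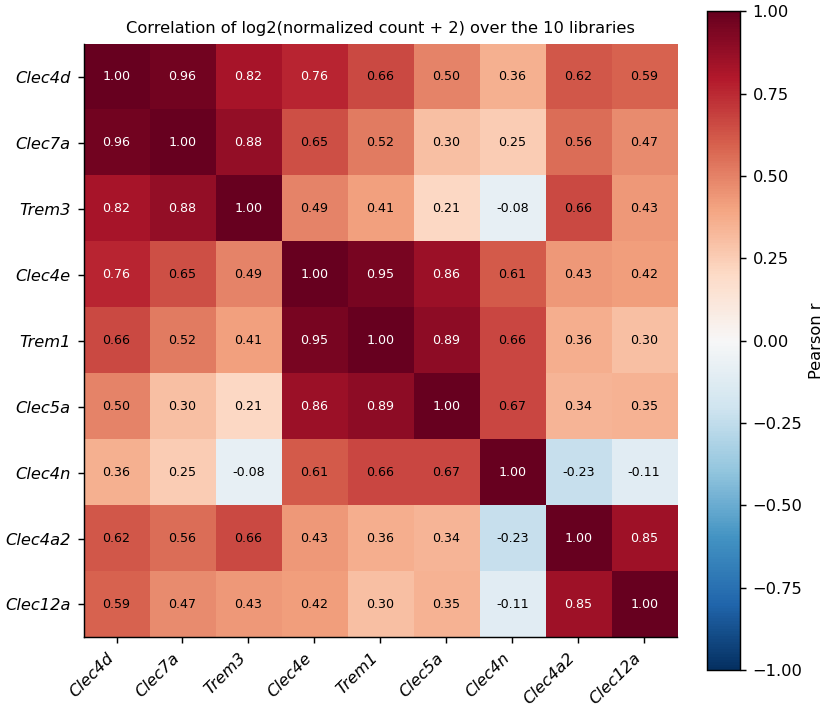
Pearson correlation of log2(normalized count + 2) over the 10 libraries between each pair of the 9 receptors, printed in each cell and shown on a colour scale from -1 to 1. Clec4d, Clec7a and Trem3 (0.82 to 0.96) and Clec4e, Trem1 and Clec5a (0.86 to 0.95) form 2 blocks of high values, and Clec4a2 with Clec12a is at 0.85.

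Across all tested genes, the genes most like each receptor over the 10 libraries were, for Clec7a, Pnrc2, Cnppd1 and Themis2 (r of 0.995 to 0.997) and, for Clec4d, Hnrnpc, Gm44710 and Cd300ld (r of 0.99 each). Trem3 was most like Fpr2, a formyl peptide receptor of neutrophils (r = 0.99), Slco4c1 and Rassf3. For Trem1 the most alike gene was Clec4e (r = 0.95), followed by Lmnb1 and Pnrc1, and for Clec4e they were Gm20406, Pnrc1 and Wsb1 (r of 0.96 to 0.97). Clec5a was nearest to Ankrd13c, Ehd1 and Mdm2 (r of 0.93 to 0.94), and Clec4n to the small nuclear RNA genes Rnu2-10 and Rnu1a1 and to B930036N10Rik (r of 0.94 to 0.95). The inhibitory receptors had the least close matches, Abr, Zyg11b and Rbfa for Clec4a2 (r of 0.90 to 0.94) and Zdhhc3, Apmap and Soat1 for Clec12a (r of 0.91 to 0.92).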

How the data were processed

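RNA-seq of Ly6G-selected mouse cells was analysed in 10 libraries, grouped by their labels. The authors trimmed reads (Trimmomatic), removed duplicates (Picard), mapped to GRCm39 (STAR), counted by strand (featureCounts), dropped mitochondrial reads and applied DESeq2 normalization. Both deposited tables hold the same signal values, counts divided by DESeq2 size factors (281850 of 281850 values equal). Every value (100%) could be expressed as a whole number of reads, within 0.1 reads, and these reads were recovered.

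The 11549 of 28185 genes that averaged 10 or more normalized counts were tested with limma (3.58.1, trend) on log2(normalized count + 2), with 1 mean per group over all libraries, which understates changes of low genes. Calls needed a Benjamini-Hochberg adjusted p under 0.05 and a log2 fold change of 0.5 or more in either direction (the interaction needed only the former). p-values measure the spread between these libraries. edgeR (4.0.16), DESeq2 (1.42.0) and limma-voom with quality weights on the recovered reads, other scalings, pseudocounts and filters, and leaving out libraries were alternatives. Simulated reads were used to test limma in its main setting, edgeR, DESeq2 and limma-voom, but not the other alternatives. Ratios were compared with exact permutation tests (scipy 1.17.1). Intervals are those of limma and rest on the spread between libraries, whereas the floor of 3 reads covers counting error only.

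Symbols and positions came from GENCODE for GRCm39 (27906 of 28185 identifiers matched), promoters from RefSeq (GRCm38.p6). The 9 members and the lists of adaptors, Syk and CARD9 signalling, inhibitory phosphatases, ligands, induced cytokines, other C-type lectin receptors, other TREM family genes and cell type markers were chosen with earlier results of these data known. Named are the members, the 3 adaptors, in each pathway list the called genes with the largest rise and fall (in lists of 5 or fewer every called gene), and the 3 genes most like each member. Tnf and Sap130 were named after their values were seen.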

Additional observations from a re-analysis of the deposited data

How the results depend on the processing

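No paired analysis was possible because the labels do not tie blood to cardiac libraries. All tests treat the libraries as independent, although heart and blood libraries may come from the same mice. Over 21 alternatives, 17 of 38 receptor fold changes kept their sign in all, and 0 of the called ones changed it. With pan-leukocyte scaling, 6 receptors were called instead of 3 in MI against Blood, all higher, as were 67.6% of tested genes. In MI+MSC against Blood+MSC 5 were called higher instead of 0 (14% of tested genes). Leaving out the 2 shallowest libraries leaves 1 Blood library. The receptors called then changed as given above, and their median in MI against Blood was -1.04 instead of -0.86. Without the 2 shallowest libraries the log2 ratio difference was 1.23 for Clec4e to Clec4d and 1.69 for Trem1 to Trem3, no longer past the threshold because fewer libraries were compared.

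Signs turned with pan-leukocyte scaling in MI+MSC against MI for Clec4a2 (-0.56), Clec12a (-0.14) and Trem3 (-0.47), in Blood+MSC against Blood for Clec5a (0.17) and Trem1 (0.11), in MI against Blood for Clec4e (1.26), Clec4a2 (1.56), Clec12a (1.33) and Trem1 (1.77), and in MI+MSC against Blood+MSC for Clec4d (0.60) and Trem3 (0.31). They turned with library size scaling for Clec5a (0.18) and Trem1 (0.11) in Blood+MSC against Blood and for Trem1 in MI against Blood (0.079), with TMM for Clec5a in MI against Blood (-0.032) and Clec4a2 in MI+MSC against Blood+MSC (-0.028), and with edgeR for Trem1 in Blood+MSC against Blood (0.056) and Clec4a2 in MI+MSC against Blood+MSC (-0.0039). They also turned with limma-voom for Trem3 in MI+MSC against MI (-0.056), with DESeq2 for the interaction of Clec4n (0.079), and without the 2 shallowest libraries for Trem3 in MI+MSC against MI (-0.051) and Trem1 in MI against Blood (0.019). None of these members had been called, and the cause was not tested.

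Leaving out 1 library at a time, values ran from -0.12 to 0.76 for Trem3 in MI+MSC against MI, and in Blood+MSC against Blood from -0.79 to 0.13 for Clec4e, -1.07 to 0.072 for Clec4a2, -0.43 to 0.19 for Clec5a, -0.73 to 0.060 for Clec7a, -1.39 to 0.043 for Clec12a and -0.94 to 0.57 for Trem1. They ran in MI against Blood from -0.52 to 1.36 for Clec4n and -0.35 to 0.54 for Clec5a, in MI+MSC against Blood+MSC from -0.12 to 0.72 for Clec4n, -0.10 to 0.17 for Clec4a2 and -0.077 to 1.43 for Trem1, in the interaction from -1.06 to 0.82 for Clec4n, and in the ratio of Clec4n to Clec4a2 from -0.14 to 1.02. With any 1 MI library left out, 3 receptors were called in MI against Blood, all lower. Called lower were 1359 of 10951 tested genes without MI 13, 1314 of 11550 without MI 19 and 1395 of 11580 without MI 20. Leaving out either Blood library changed the receptor calls, but it leaves 1 library in that group, so no count is given.

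Groups of 2 and 3 libraries and the depth of MI 13 and Blood 21 limit these comparisons. With 11 reads for Clec4d and 5 for Trem3 in MI 13, counting error alone is large there.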

Other observations

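Related receptors outside the 9 are given here with limma on the deposited scaling. Of 14 tested other C-type lectin receptors, 2 rose and 1 fell in MI against Blood (21.2% and 13.5% of all tested genes). The rises were those of Clec14a, an endothelial lectin (adjusted p = 1.21e-05), and Colec12, a scavenger receptor, at 2.10 on the log2 scale (adjusted p = 0.00776). Clec14a was at 119 to 127 normalized counts in MI and at 0 in Blood, so no fold is given. The fall was that of Clec1b, the platelet receptor CLEC-2, by 5.41 (adjusted p = 0.00780). Clec1b was at 0 to 11.5 normalized counts in MI and at 38.3 and 1201 in the Blood libraries, the higher value that of Blood 21. Endothelial markers were called higher in MI for 7 of 10 genes and platelet markers lower for 6 of 7, and Blood 21 held 26834 summed normalized counts of platelet markers. Between the MSC-treated groups, Clec14a rose from at most 0.337 normalized counts in Blood+MSC to 21.6 to 50.8 in MI+MSC (adjusted p = 0.000541). These blood levels are at or below 3 reads in each library, so again no fold is given. Olr1, the lectin-like oxidized LDL receptor, rose by 1.61 (adjusted p = 0.0331). Under pan-leukocyte scaling Clec14a, Colec12 and Clec1b kept their directions in MI against Blood, Colec12 at 4.0 and Clec1b at -4.06. However, 12 of 17 tested genes of the list were then called higher, where 67.6% of all tested genes were.

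Of 4 tested other TREM family genes, Treml1, a platelet protein, fell by 4.58 (adjusted p = 0.0140) and Treml2, a receptor of myeloid and lymphoid cells, by 2.50 (adjusted p = 0.00342) in MI against Blood. Treml1 was at 24 and 1215 normalized counts in the Blood libraries and Treml2 at 266 and 1024, the higher values those of Blood 21. Of all tested genes, 13.5% were called lower. Under pan-leukocyte scaling Treml2 was at -0.31 and no longer called. Between the MSC-treated groups 0 of the 4 were called by limma, while edgeR and DESeq2 called Trem2 higher. These tools called 32% and 29% of all tested genes in either direction.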
